A study of Homo sapiens with 11 samples.

Results

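The genes studied here were 30 genes of cholesterol and fatty acid synthesis, chosen by name for their place in these pathways. Earlier results of these data were known when they were chosen. They fall into a sterol branch of 21 genes, which holds 18 pathway enzymes and 3 genes of sterol control, and a fatty acid branch of 9 genes. RNA had been hybridized to 11 human Clariom D microarrays, all of it from PC3, an established prostate cancer line that came from a bone metastasis. The cells carried shIBSP, with 2 arrays, or shNC, with 1 array, at 48 h, or siHOXA11-AS, siHOXA11, siHOXB13 or siNC, each with 1 array at 48 h and 1 at 24 h. HOXA11-AS is a lncRNA transcribed from the strand opposite the homeobox gene HOXA11, HOXB13 is a homeobox transcription factor, IBSP is integrin binding sialoprotein, and siNC and shNC are the negative controls. The titles of the last set say sh, whereas other label fields speak of siRNA, so the construct is not settled. The unit of the siRNA concentration also differs between labels and methods. Of the 30 genes, 28 were read from a probe set that carried their symbol alone, 20 in the sterol branch and 8 in the fatty acid branch, and 33616 genes were named in all. FADS1, a fatty acid desaturase, lay only on a probe set shared with another gene, and FDFT1, squalene synthase, was not analysed here. The tests used the 16808 genes with the highest mean, which include 27 of the 28. LPIN1, a phosphatidate phosphatase, was left out of them: its log2 intensity was between 2.81 and 4.39, near the median of the background probe sets, 3.26 to 3.32.

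Cells build cholesterol from acetyl-CoA through mevalonate, isoprenoid units, squalene and lanosterol, and they build fatty acids from acetyl-CoA through malonyl-CoA. Transcription of both routes is driven by the sterol regulatory element binding proteins, SREBF2 chiefly for sterols and SREBF1 chiefly for fatty acids, which INSIG1 holds back in the endoplasmic reticulum when sterols are plentiful. SREBPs act at promoters together with NF-Y and Sp1. Prostate cancer cells are known for active lipid synthesis.

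Promoter sequence was searched for short motifs. RefSeq promoters (GRCh38.p14, from 250 bases before to 50 bases after a start site) were at hand for 26 of the 30 genes, 8 of which had several. An NF-Y box, CCAAT on either strand, was in a promoter of 20 of 26 members, 76.9%, against 39.7% of all 27305 genes with a promoter. It was in 16 of 18 sterol genes and 4 of 8 fatty acid genes. An Sp1 box, GGGCGG, was in 25 of 26 members, all but NSDHL, against 48.3% of all genes. The SREBP site TCACNCCAC was in 1 member, SREBF2, against 1.39% of all genes, and the E-box CACGTG was in 3 members, LSS, SC5D and INSIG1, 11.5% against 8.77% of all genes. A match is only a match of letters. The promoters below belong to SREBF2 and to 3 enzymes whose values stand out in the results, HMGCS1 and MSMO1 on the high side and NSDHL on the low side. Capitals mark CCAAT or its reverse complement, and in SREBF2 also the SREBP site, which starts at position −133 from the start site. The windows are chr22:41832855-41833154 (plus strand) for SREBF2, chr5:43313363-43313662 (minus strand) for HMGCS1, chr4:165327419-165327718 (plus strand) for MSMO1 and chrX:152830813-152831112 (plus strand) for NSDHL. In NSDHL a box on each strand overlaps the other.
SREBF2: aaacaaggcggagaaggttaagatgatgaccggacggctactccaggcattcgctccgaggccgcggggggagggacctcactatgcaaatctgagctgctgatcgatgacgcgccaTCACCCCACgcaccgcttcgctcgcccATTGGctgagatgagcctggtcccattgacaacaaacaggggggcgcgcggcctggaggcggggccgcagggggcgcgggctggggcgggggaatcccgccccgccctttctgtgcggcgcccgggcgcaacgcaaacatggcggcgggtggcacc
HMGCS1: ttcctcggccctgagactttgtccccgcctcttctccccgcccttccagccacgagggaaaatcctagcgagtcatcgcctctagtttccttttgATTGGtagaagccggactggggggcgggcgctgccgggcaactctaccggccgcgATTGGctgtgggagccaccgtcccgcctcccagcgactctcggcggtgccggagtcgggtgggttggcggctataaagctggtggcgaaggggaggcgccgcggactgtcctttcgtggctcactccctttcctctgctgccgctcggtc
MSMO1: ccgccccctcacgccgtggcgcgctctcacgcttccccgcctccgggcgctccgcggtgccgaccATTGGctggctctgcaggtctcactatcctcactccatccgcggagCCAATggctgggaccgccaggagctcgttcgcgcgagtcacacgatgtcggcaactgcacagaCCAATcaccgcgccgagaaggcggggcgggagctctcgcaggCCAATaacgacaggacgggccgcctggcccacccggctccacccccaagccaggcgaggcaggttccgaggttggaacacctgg
NSDHL: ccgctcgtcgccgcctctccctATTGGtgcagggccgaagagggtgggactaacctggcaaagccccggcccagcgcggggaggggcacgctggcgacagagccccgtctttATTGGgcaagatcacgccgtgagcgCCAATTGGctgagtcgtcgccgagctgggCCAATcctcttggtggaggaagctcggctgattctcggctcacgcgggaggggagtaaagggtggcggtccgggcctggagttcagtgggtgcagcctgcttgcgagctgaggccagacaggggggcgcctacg
All 4 promoters shown hold a CCAAT box, but where a gene has several promoters the one with the most boxes was shown. The other HMGCS1 promoter, chr5:43313132-43313431, holds 0. Of the promoters shown, the Sp1 box is in those of SREBF2, HMGCS1 and MSMO1 and not in that of NSDHL.

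Each array is 1 sample. HOXB13 went against the labels of a pair of arrays. At 48 h it was 10.36 for the label siHOXB13 and 8.52 for the label siNC, but at 24 h it was 8.09 with siHOXB13 and 10.10 with siNC. Whether the labels of these 48 h arrays were exchanged was not settled. The arrays are called by their labels. The main results that rest on them are also given against the siNC array of 24 h or without both. A 48 h array set against siNC of 24 h differs from it in time as well as siRNA. The comparison of siHOXA11-AS with siHOXA11 is given too. Its differences use neither array, but both enter the error of its limma test. HOXA11-AS itself was 6.40 with siHOXA11-AS at 48 h, against 6.68 under the label siNC, and 6.01 with siHOXA11-AS at 24 h, against 6.30 with siNC. With siHOXA11 it was 6.25 at 48 h, below the siHOXA11-AS array of that time, and 6.29 at 24 h. IBSP was near background on all arrays, between 3.17 and 4.40. The median over the tested genes lay between 7.19 with siHOXA11 at 48 h and 7.58 with shNC. All 5 epithelial markers (KRT8, KRT18, KRT19, EPCAM and CDH1) were at 10.56 or above on every array. Of 5 fat and liver cell markers ADIPOQ, PLIN1 and APOB were at 4.35 or below, whereas LEP reached 5.05 and ALB 6.22. Of the bone cell markers ALPL and SP7 were at 3.28 or below, whereas RUNX2 was at 9.70 or above and COL1A1 at 7.99 or above, and the macrophage marker CD68 was between 10.94 and 13.38. In RNA of whole cultures, fewer cells of a type and less RNA per cell cannot be told apart.

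Most sterol genes and several fatty acid genes were at their highest on the siHOXA11-AS array of 48 h. Of the 27 tested members 18 had their highest of 11 values there, 14 of the sterol and 4 of the fatty acid branch, against 13.2% of all tested genes. After array medians were centred the count was 17, against 8.12% of all tested genes. No tested member had its lowest value there, against 6.18% of all. This array was picked out after its values were seen, and the counts are a description.

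**Figure D1:**
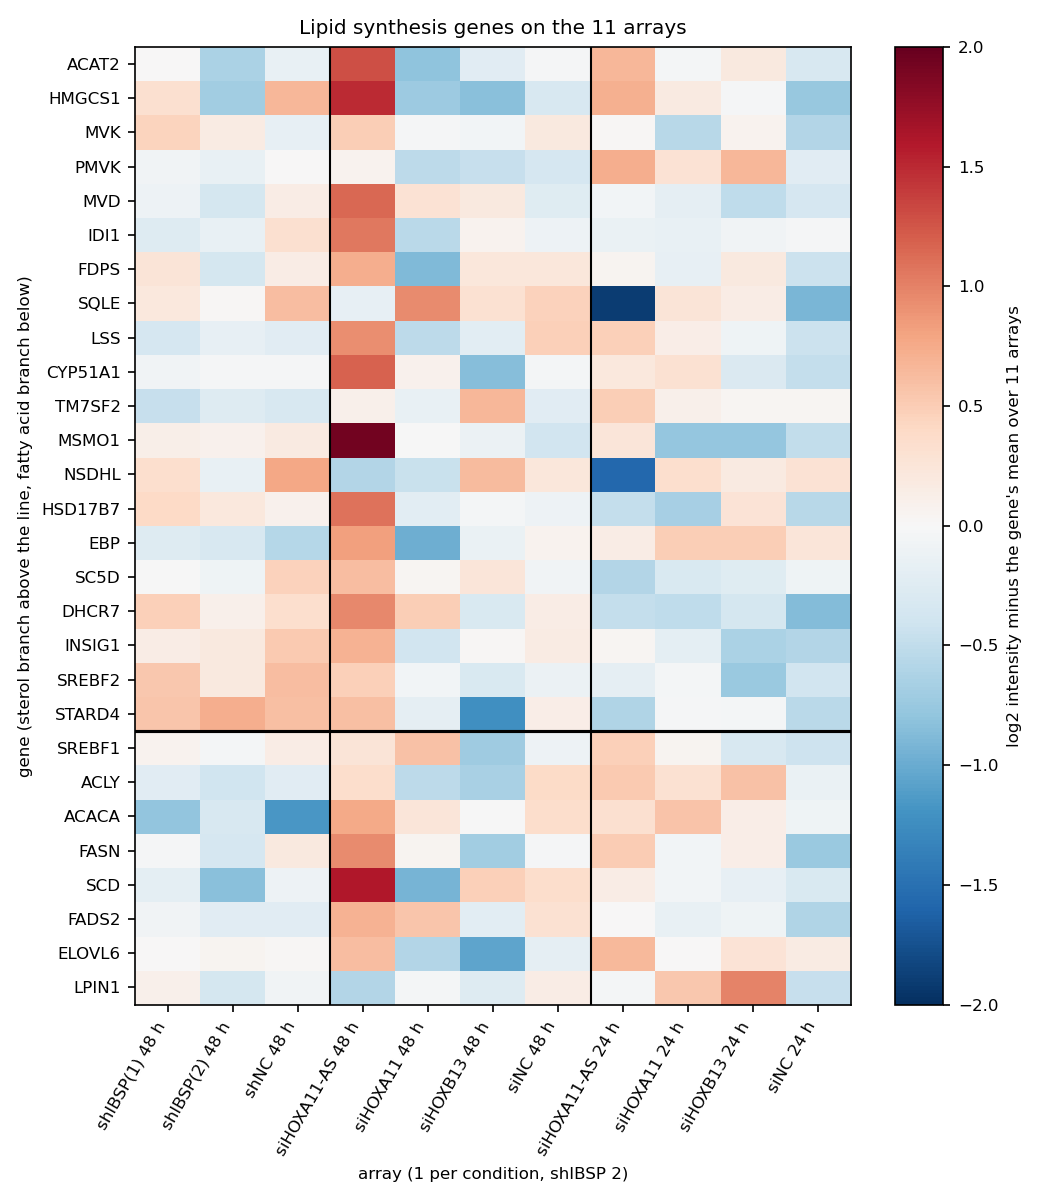
Log2 intensity of 28 genes (rows) on 11 arrays (columns), as the difference from the mean of each gene over the 11 arrays; colours stop at 2 and −2. The siHOXA11-AS column of 48 h is red in most rows of both branches, and blue for NSDHL and LPIN1 and pale blue for SQLE, while SQLE and NSDHL are the darkest blue in the siHOXA11-AS column of 24 h.

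Among the first steps of the mevalonate route, ACAT2 joins acetyl-CoA units and HMGCS1 makes HMG-CoA. The log2 intensity of HMGCS1 was 11.49 with siHOXA11-AS at 48 h, against 9.26 with siHOXA11, 9.15 on the array labelled siHOXB13 and 9.68 on that labelled siNC. At 24 h HMGCS1 was 10.70 with siHOXA11-AS, against 10.17 with siHOXA11, 9.97 with siHOXB13 and 9.24 with siNC. Its values on the other arrays were 10.32 and 9.30 with shIBSP, against 10.65 with shNC. HMGCS1 was thus highest with siHOXA11-AS at each time, and the 24 h value was hardly above that of shNC. ACAT2 was 10.93 with siHOXA11-AS at 48 h, against 8.84 with siHOXA11, 9.41 on the array labelled siHOXB13 and 9.62 on that labelled siNC. At 24 h ACAT2 was 10.30 with siHOXA11-AS, against 9.60 with siHOXA11, 9.84 with siHOXB13 and 9.32 with siNC. ACAT2 was 9.65 and 9.01 with shIBSP and 9.49 with shNC, so both siHOXA11-AS arrays lay above the other 9.

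After mevalonate, MVK, PMVK and MVD make isopentenyl pyrophosphate, IDI1 isomerizes it and FDPS joins the units to farnesyl pyrophosphate. With siHOXA11-AS at 48 h, MVD was 1.38 and IDI1 1.16 log2 units above the array labelled siNC, whereas MVK, PMVK and FDPS were 0.29, 0.41 and 0.50 above it. At 24 h the differences were 0.62 for MVK, 0.96 for PMVK, 0.27 for MVD, −0.11 for IDI1 and 0.48 for FDPS. FDPS was 11.95 with siHOXA11 at 48 h and between 12.41 and 13.57 on the other 10 arrays.

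SQLE, squalene epoxidase, and NSDHL, a sterol dehydrogenase of C4 demethylation, went the other way. NSDHL was 10.02 with siHOXA11-AS at 48 h, against 10.16 with siHOXA11, 11.24 on the array labelled siHOXB13 and 10.84 on that labelled siNC. At 24 h NSDHL was 9.04 with siHOXA11-AS, against 10.95 with siHOXA11, 10.79 with siHOXB13 and 10.90 with siNC. With shIBSP it was 10.95 and 10.46, and with shNC 11.38. Both siHOXA11-AS arrays were the lowest of the 11 for NSDHL, with siHOXA11 at 48 h close above them. SQLE was 10.76 with siHOXA11-AS at 48 h, against 11.86 with siHOXA11, 11.23 on the array labelled siHOXB13 and 11.38 on that labelled siNC. At 24 h SQLE was 9.02 with siHOXA11-AS, against 11.18 with siHOXA11, 11.06 with siHOXB13 and 10.00 with siNC. SQLE was 11.13 and 10.95 with shIBSP and 11.54 with shNC. The siNC array of 24 h was itself low for SQLE, so the siHOXA11-AS array of 48 h was 0.62 below the array labelled siNC at 48 h but 0.76 above siNC at 24 h.

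Of the enzymes that turn lanosterol into cholesterol, MSMO1, the C4 methylsterol oxidase that works in the same demethylation as NSDHL, differed most. MSMO1 was 15.58 with siHOXA11-AS at 48 h, against 13.63 with siHOXA11, 13.53 on the array labelled siHOXB13 and 13.26 on that labelled siNC. At 24 h MSMO1 was 13.88 with siHOXA11-AS, against 12.87 with siHOXA11, 12.87 with siHOXB13 and 13.15 with siNC. MSMO1 was 13.76 and 13.73 with shIBSP and 13.83 with shNC. The 48 h array stood clear of all others, and the 24 h array was hardly above shNC. CYP51A1, the lanosterol demethylase, was 13.09 with siHOXA11-AS at 48 h, against 11.99 with siHOXA11, 11.06 on the array labelled siHOXB13 and 11.87 on that labelled siNC. At 24 h CYP51A1 was 12.12 with siHOXA11-AS, against 12.21 with siHOXA11, 11.62 with siHOXB13 and 11.43 with siNC. With shIBSP it was 11.84 and 11.89, and with shNC 11.89. Only the 48 h array stood apart for CYP51A1. HSD17B7, the ketosteroid reductase of C4 demethylation, was 1.18 above the array labelled siNC with siHOXA11-AS at 48 h and 0.09 above siNC at 24 h. LSS (lanosterol synthase), EBP (sterol isomerase), SC5D (sterol desaturase) and DHCR7 (7-dehydrocholesterol reductase) were 0.46, 0.74, 0.69 and 0.81 above the array labelled siNC at 48 h, and 0.89, −0.09, −0.49 and 0.39 from siNC at 24 h. TM7SF2, a sterol C14 reductase, was 0.33 above at 48 h and 0.44 above at 24 h.

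Among the control genes, INSIG1, which retains the SREBPs and is itself their target, was 8.99 with siHOXA11-AS at 48 h, against 7.91 with siHOXA11, 8.32 on the array labelled siHOXB13 and 8.47 on that labelled siNC. At 24 h INSIG1 was 8.34 with siHOXA11-AS, against 8.11 with siHOXA11, 7.67 with siHOXB13 and 7.71 with siNC, and on the other arrays it was 8.44 and 8.50 with shIBSP, against 8.83 with shNC. SREBF2 was 6.89 with siHOXA11-AS at 48 h, against 6.35 with siHOXA11, 6.11 on the array labelled siHOXB13 and 6.29 on that labelled siNC. At 24 h SREBF2 was 6.23 with siHOXA11-AS, against 6.37 with siHOXA11, 5.67 with siHOXB13 and 6.02 with siNC. With shIBSP it was 6.95 and 6.60, and with shNC 7.02. For SREBF2 the siHOXA11-AS array of 48 h was highest of the siRNA arrays but below shIBSP(1) and shNC. STARD4, a sterol carrier, was 0.48 above the array labelled siNC with siHOXA11-AS at 48 h and −0.06 from siNC at 24 h, and its lowest value, 6.18, was on the array labelled siHOXB13 at 48 h.

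In the fatty acid branch, SCD, the stearoyl-CoA desaturase, was 14.06 with siHOXA11-AS at 48 h, against 11.52 with siHOXA11, 12.93 on the array labelled siHOXB13 and 12.80 on that labelled siNC. At 24 h SCD was 12.60 with siHOXA11-AS, against 12.39 with siHOXA11, 12.28 with siHOXB13 and 12.15 with siNC. With shIBSP it was 12.26 and 11.62, and with shNC 12.35. SCD was thus far above the other arrays at 48 h, while at 24 h the 4 siRNAs spanned 0.45. FASN, the fatty acid synthase, was 12.49 with siHOXA11-AS at 48 h, against 11.61 with siHOXA11, 10.86 on the array labelled siHOXB13 and 11.53 on that labelled siNC. At 24 h FASN was 12.06 with siHOXA11-AS, against 11.50 with siHOXA11, 11.68 with siHOXB13 and 10.81 with siNC, and it was 11.53 and 11.22 with shIBSP, against 11.74 with shNC. Both siHOXA11-AS arrays were the highest of 11 for FASN. ELOVL6, a fatty acid elongase, was 8.34 with siHOXA11-AS at 48 h, against 7.14 with siHOXA11, 6.67 on the array labelled siHOXB13 and 7.54 on that labelled siNC. At 24 h ELOVL6 was 8.37 with siHOXA11-AS, against 7.72 with siHOXA11, 8.0 with siHOXB13 and 7.88 with siNC, and it was 7.72 and 7.78 with shIBSP, against 7.75 with shNC. ELOVL6 was highest on both siHOXA11-AS arrays too.

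SREBF1 was 8.33 with siHOXA11-AS at 48 h, against 8.66 with siHOXA11, 7.37 on the array labelled siHOXB13 and 7.97 on that labelled siNC. At 24 h SREBF1 was 8.55 with siHOXA11-AS, against 8.13 with siHOXA11, 7.76 with siHOXB13 and 7.66 with siNC, and it was 8.15 and 8.03 with shIBSP, against 8.23 with shNC. LPIN1, near background, was 2.81 with siHOXA11-AS at 48 h, against 3.36 with siHOXA11, 3.14 on the array labelled siHOXB13 and 3.54 on that labelled siNC. At 24 h LPIN1 was 3.35 with siHOXA11-AS, against 3.94 with siHOXA11, 4.39 with siHOXB13 and 2.94 with siNC, and it was 3.50 and 3.05 with shIBSP, against 3.33 with shNC. Of the remaining members, FADS2 (a fatty acid desaturase) and ACACA (acetyl-CoA carboxylase) were 0.39 and 0.40 above the array labelled siNC with siHOXA11-AS at 48 h, and ACLY (ATP citrate lyase) was −0.04 from it. At 24 h FADS2, ACACA and ACLY were 0.61, 0.41 and 0.66 above siNC.

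**Figure D2:**
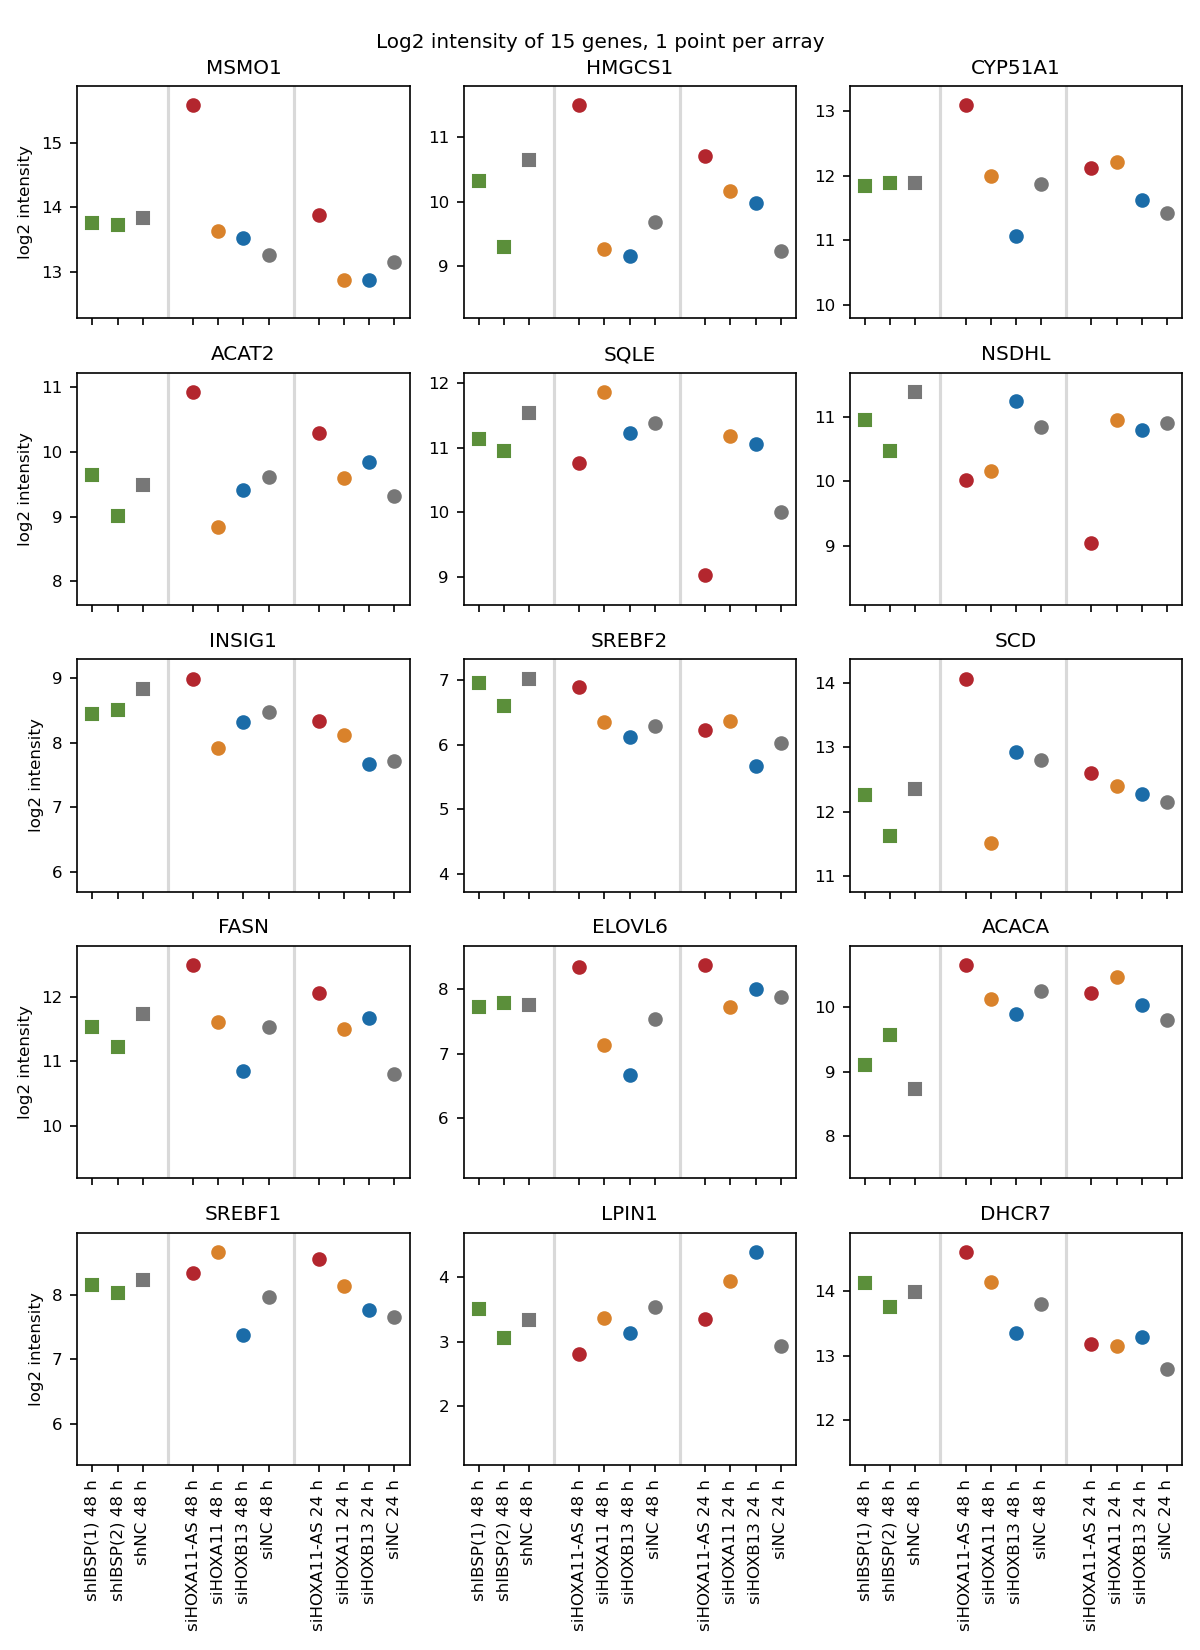
Log2 intensity (y axis) of 15 genes on each of the 11 arrays, with 1 point per array and no error bar; squares are arrays titled sh and circles siRNA arrays. MSMO1 stands at 15.58 with siHOXA11-AS at 48 h, and NSDHL and SQLE at 9.04 and 9.02 with siHOXA11-AS at 24 h.

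Set against the control of the same time, siHOXA11-AS at 48 h left 8 of the 27 tested members at least 2-fold (1 log2 unit) above the array labelled siNC, against 3.68% of all tested genes: ACAT2, HMGCS1, MVD, IDI1, CYP51A1, MSMO1, HSD17B7 and SCD. None was 2-fold lower, against 2.05% of all. Against siNC of 24 h, 16 were 2-fold higher, against 8.38% of all, but that pair differs in time as well as siRNA. The array labelled siNC at 48 h, set against siNC of 24 h, had a sterol median of 0.37 and a fatty acid median of 0.56, beside 0.14 over all tested genes. With siHOXA11-AS at 48 h against the array labelled siHOXB13 at 48 h, 11 members were 2-fold higher, against 6.80% of all. In that pair 1, NSDHL, was 2-fold lower, against 4.47% of all. Its sterol median was 0.94 and its fatty acid median 0.97, beside 0.10 over all tested genes. At 24 h, 2 members, HMGCS1 and FASN, were 2-fold above siNC, against 3.86% of all, and 1, NSDHL, was 2-fold below it, against 1.80% of all. The sterol branch median was 0.65 at 48 h and 0.42 at 24 h, and the fatty acid branch median 0.40 and 0.55, beside 0.07 and 0.11 over all tested genes. With array medians centred the sterol medians were 0.52 and 0.27 and the fatty acid medians 0.27 and 0.40. Against siHOXA11, which uses no doubtful array, 12 members were 2-fold higher at 48 h, against 17.5% of all, and 1, SQLE, was 2-fold lower, against 4.60% of all. The sterol and fatty acid medians were 0.97 and 0.69, beside 0.21 over all tested genes, and the siHOXA11 array of 48 h had the lowest array median. With array medians centred, 8 members were 2-fold higher, against 10.1% of all, and the sterol and fatty acid medians were 0.64 and 0.36. Epithelial markers differed in this pair too, with a median over 5 of 1.14 and 4 of 5 higher. KRT18 was 15.22 with siHOXA11-AS and 12.91 with siHOXA11, and CDH1 was 11.81 with siHOXA11-AS and 13.98 with siHOXA11. Their part in the result was not tested. At 24 h, 1 member, MSMO1, was 2-fold above siHOXA11, against 1.73% of all, and SQLE and NSDHL were 2-fold below it, against 2.49% of all. With 1 array each these differences have no replicate check.

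**Figure D3:**
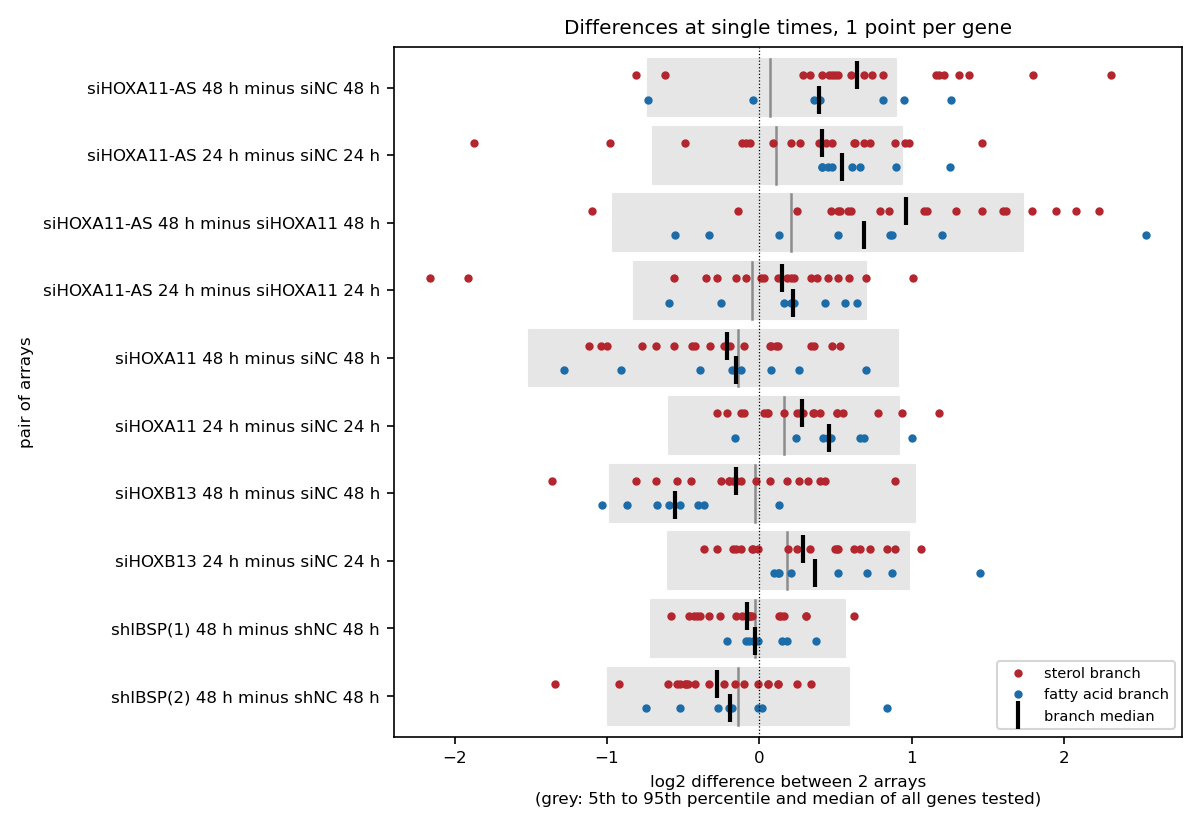
Log2 difference between 2 arrays (x axis) for each pair of arrays (rows), 1 point per gene, red for the sterol and blue for the fatty acid branch, black bars for branch medians and grey for the 5th to 95th percentile and median of all tested genes. The sterol median is 0.65 for siHOXA11-AS minus siNC at 48 h and lies between −0.28 and 0.29 in the pairs of siHOXA11, siHOXB13 or shIBSP with their control.

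Over both times, 20 of 27 members were above siNC with siHOXA11-AS at 48 h and at 24 h, against 36.6% of all tested genes, and 2, SQLE and NSDHL, were below it at both times, against 20.1% of all. Against siHOXA11, 18 were above at both times, against 30.6% of all, and the same pair, SQLE and NSDHL, were below, against 23.3% of all. The difference common to both times was tested with limma on the 8 siRNA arrays, with 3 residual degrees of freedom. After Benjamini-Hochberg adjustment 0 of 27 members passed 0.05 for siHOXA11-AS against siNC, as did 0% of all tested genes. At an unadjusted p under 0.05 there were 7 members, against 4.0% of all: HMGCS1 (log2 difference 1.63, standard error 0.46), MSMO1 (1.52, 0.40), ACAT2 (1.15, 0.39), FASN (1.10, 0.40), CYP51A1 (0.95, 0.40) and MVD (0.83, 0.35) were above siNC, and NSDHL (−1.34, 0.43) was below it. Their adjusted p was 1.00. The count at an unadjusted p under 0.05 was 2 when siHOXA11-AS at 48 h, siNC at 24 h or both doubtful arrays were left out, with 1.36%, 3.48% and 3.24% of all tested genes. In the methods' unpaired test it was 0, against 5.79% of all. The median over the members was 0.58, beside 0.09 over all tested genes.

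Against siHOXA11, 0 of 27 members and 0% of all tested genes passed the adjusted threshold. At an unadjusted p under 0.05 there were 8 members, against 8.26% of all. Both doubtful arrays enter the error of this fit, and without them the count was 6, against 6.62% of all. SQLE had a log2 difference of −1.63 (standard error 0.41, limma adjusted p = 0.464) and MSMO1 one of 1.48 (0.40, adjusted p = 0.513). ACAT2 (1.39), SCD (1.38), HMGCS1 (1.37), ELOVL6 (0.92) and FDPS (0.91) were also above, and NSDHL (−1.03) below. Leaving out siHOXA11-AS at 48 h gave 2, against 2% of all, leaving out siHOXA11 at 48 h gave 3, against 3.28% of all, and the methods' unpaired test gave 0, against 4.68% of all. HMGCS1, MSMO1, ACAT2 and NSDHL were in both sets of unadjusted p, and the comparisons share the siHOXA11-AS arrays.

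**Figure D4:**
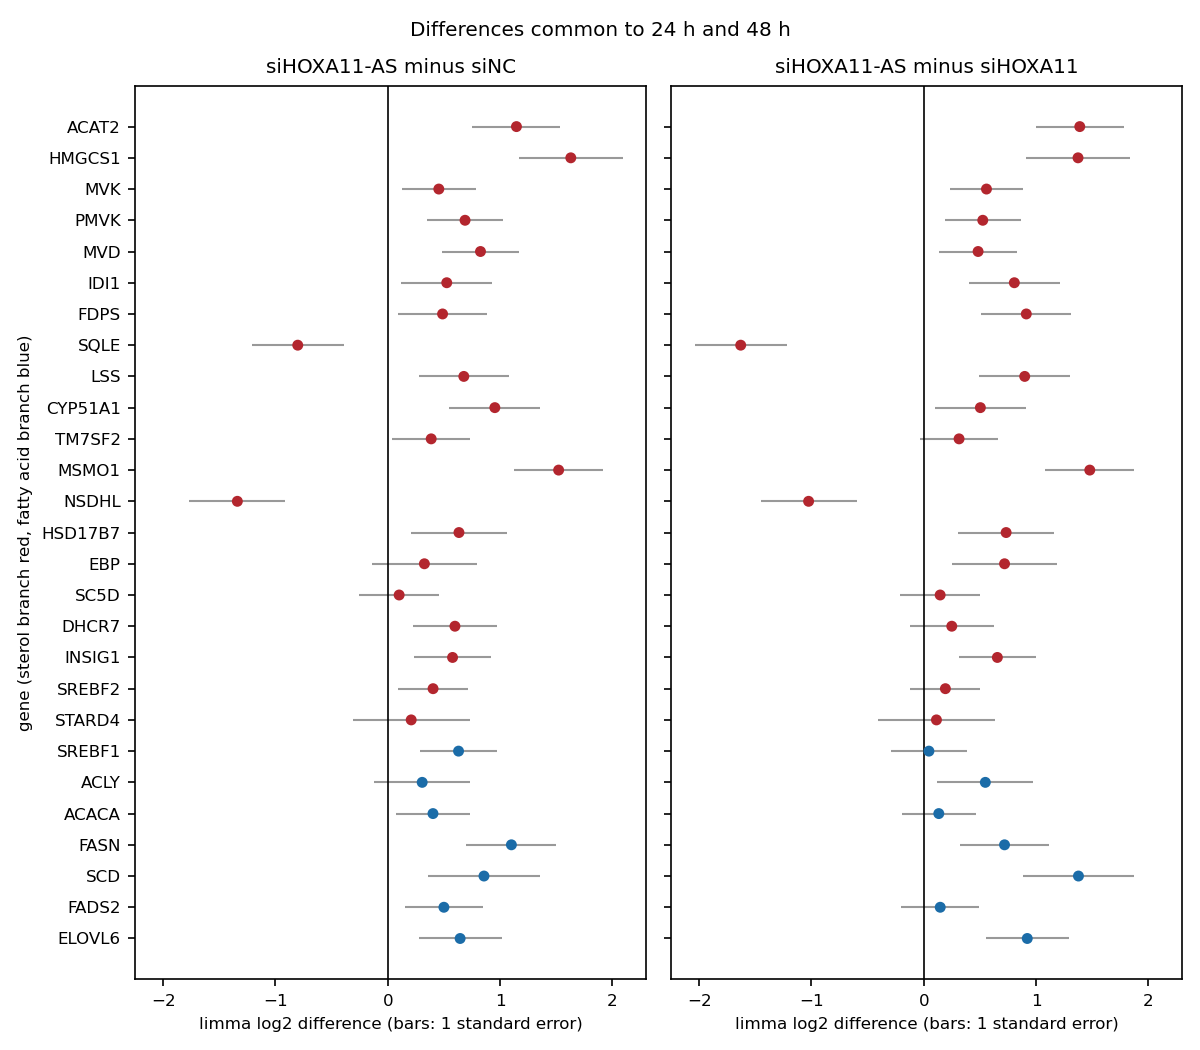
limma log2 difference common to 48 h and 24 h (x axis, bars 1 standard error) for the 27 tested genes, for siHOXA11-AS minus siNC and siHOXA11-AS minus siHOXA11. HMGCS1 lies at 1.63 and 1.37, MSMO1 at 1.52 and 1.48, and NSDHL at −1.34 and −1.03.

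The interferon response genes IFIT1 and MX1, chosen after their values were seen, were also high with siHOXA11-AS at 48 h. IFIT1 was 13.85 with siHOXA11-AS at 48 h, against 8.63 with siHOXA11, 10.04 on the array labelled siHOXB13 and 8.10 on the array labelled siNC, and MX1 was 16.52 there, against 8.05 with siHOXA11, 13.65 on the array labelled siHOXB13 and 10.00 on that labelled siNC. At 24 h IFIT1 was 11.05 with siHOXA11-AS, against 9.47 with siNC, but MX1 was 11.71 with siHOXA11-AS, against 13.01 with siNC. On the arrays titled sh, IFIT1 was between 15.52 and 16.77 and MX1 between 19.02 and 19.54. The part of the interferon response in the lipid values was not tested.

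With siHOXA11 at 48 h, 3 of 27, FDPS, EBP and SCD, were 2-fold below the array labelled siNC, against 13.2% of all tested genes, and 0 were 2-fold above it, against 3.90% of all. Against siNC of 24 h the counts turned: 4 (SQLE, DHCR7, SREBF1 and FADS2) were 2-fold above, against 6.69% of all, and 1, EBP, was 2-fold below, against 9.73% of all. At 24 h, 1, SQLE, was 2-fold above siNC, against 3.69% of all, and 0 were 2-fold below it, against 0.976% of all. The siHOXA11 array of 48 h held the lowest of 11 values for 7 members (ACAT2, PMVK, IDI1, FDPS, LSS, EBP and SCD), against 25.8% of all. In limma 0 members and 0% of all tested genes passed the adjusted threshold, and at an unadjusted p under 0.05 there were 0 members, against 3.68% of all.

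With siHOXB13 the fatty acid branch median was −0.56 on the array labelled siHOXB13 against that labelled siNC at 48 h, beside −0.03 over all tested genes, and 0.36 at 24 h, beside 0.18. Against siNC of 24 h the 48 h value was 0.06. At 48 h 2 members, STARD4 and ACLY, were 2-fold below, against 4.62% of all, and 0 were 2-fold above, against 5.22% of all. Against siNC of 24 h, 1 member, ELOVL6, was 2-fold below, against 1.25% of all, and 1, SQLE, was 2-fold above, against 5.16% of all. At 24 h 1 member, SQLE, was 2-fold above siNC, against 4.58% of all, and 0 were 2-fold below it, against 1.09% of all. In limma 0 members and 0% of all tested genes passed the adjusted threshold, and at an unadjusted p under 0.05 there were 0 members, against 1.01% of all.

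Between the times, SQLE, DHCR7, MSMO1, MVD and SC5D were higher at 48 h than at 24 h with all 4 siRNAs, 5 of 27 against 8.59% of all tested genes. PMVK and ELOVL6 were lower with all 4, against 6.73% of all. In limma 0 of 27 passed the adjusted threshold, against 0% of all, and at an unadjusted p under 0.05 there were 5, against 7.02% of all. These were SQLE (0.99, standard error 0.29), DHCR7 (0.87, 0.27), MSMO1 (0.80, 0.28), MVD (0.62, 0.24) and PMVK (−0.67, 0.24), each with a limma adjusted p of 0.705. Leaving out either siHOXA11-AS array gave 1 member, against 4.36% of all tested genes. DHCR7 was 14.61, 14.14, 13.35 and 13.80 with siHOXA11-AS, siHOXA11, siHOXB13 and siNC at 48 h, against 13.18, 13.15, 13.30 and 12.79 at 24 h.

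With shIBSP the sterol median was −0.08 in shIBSP(1) and −0.28 in shIBSP(2) against shNC, and the fatty acid median −0.03 and −0.19, beside −0.03 and −0.14 over all tested genes. In shIBSP(1), 0 were 2-fold higher, against 0.506% of all tested genes, and 0 were 2-fold lower, against 1.60% of all. In shIBSP(2), 0 were 2-fold higher, against 0.988% of all, and 1, HMGCS1, was 2-fold lower, against 4.87% of all. In limma 0 members and 0% of all passed the adjusted threshold, and 0 members had an unadjusted p under 0.05, against 2.54% of all.

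Arrays titled sh also differed from the siRNA arrays of 48 h, and here the set of arrays and the construct cannot be told apart. Of the tested genes 1.64% passed the adjusted threshold, but 0 of 27 members. ACACA came nearest, and it was 9.10 and 9.57 with shIBSP and 8.73 with shNC, against 9.89 to 10.65 on the siRNA arrays of 48 h. Its log2 difference was −1.10 (standard error 0.24, limma adjusted p = 0.0631), and the groups did not overlap. ACACA was the 1 member at an unadjusted p under 0.05, against 12% of all. Its limma adjusted p was 0.0207 with array medians centred and 0.0311 with quantile normalization, but 0.394 without both doubtful arrays. ACACA has 2 probe sets, and with their mean in place of the brighter one its log2 difference was −0.53 (adjusted p = 0.345). ACACA and TM7SF2 were below all 4 siRNA arrays on all 3 sh arrays, against 3.92% of all tested genes, and 0 members were above all 4, against 7.23% of all.

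Among other lipid genes, the siHOXA11-AS differences common to both times were smaller in median than over all members. Within the members, the 3 sterol control genes had a median of 0.40 for siHOXA11-AS against siNC. Of 13 further genes of the sterol route, 8 were named on the array and 7 were tested, with a median of 0.51 for siHOXA11-AS against siNC, beside 0.09 over all tested genes. For 7 tested genes of cholesterol storage and export the median was 0.44, for 15 other genes of fatty acid synthesis (acetyl-CoA and malonyl-CoA supply, elongation, activation and lipid assembly) 0.28, and for 9 of fatty acid oxidation 0.02. In all of these lists, 0 genes passed the adjusted threshold. INSIG2, which retains the SREBPs like INSIG1, was 10.04 with siHOXA11-AS at 48 h, against 7.62 with siHOXA11. It was 9.47 on the array labelled siHOXB13 and 9.70 on the array labelled siNC. On the arrays titled sh, INSIG2 was 9.92 and 9.83 with shIBSP and 10.21 with shNC. SOAT1, which esterifies cholesterol, was lowest of 11 with siHOXA11-AS at 48 h, at 7.41, against 8.36 on the array labelled siNC, and at 24 h it was 7.86 with siHOXA11-AS against 9.32 with siNC. LIPA, the lysosomal acid lipase, was 13.82 with siHOXA11-AS at 48 h, against 13.42 with siHOXA11. It was 11.36 on the array labelled siHOXB13 and 12.40 on that labelled siNC. At 24 h LIPA was 12.90 with siHOXA11-AS, against 13.13 with siHOXA11, 13.09 with siHOXB13 and 12.16 with siNC.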

How the data were processed

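RNA of PC3 cells was measured on 11 arrays, with 1 array per condition except shIBSP, which has 2. Conditions come from the labels. The authors ran Affymetrix Expression Console (submitters' processing notes) and deposited 1 linear intensity per probe set and array. For its version, summarization, normalization and build, the entry is: not given in the sources used here. Since log2 values had been assumed and the deposited intensity is linear, log2 was taken before anything else, with no further normalization. Of 138745 probe sets 36176 carried 1 gene symbol. A gene with several was read from that with the highest mean. The number of arrays limits the precision.

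Tests used limma 3.58.1 in R 4.3.3 (lmFit, eBayes, Benjamini-Hochberg at 0.05 over 16808 genes, the upper part of 33616 by mean), on the 8 siRNA arrays with siRNA and time as terms, or on all 11 for shIBSP against shNC and sh against siRNA arrays. The error is the disagreement of each siRNA between times, and nothing says that arrays came from separate cultures. It may be technical and holds true changes of effect with time. The fits were tested on simulated data. Other steps used Python 3.11.15, numpy 2.4.6, pandas 2.3.3 and matplotlib 3.10.9. Motifs were searched on both strands of the RefSeq promoters. Members and lists were chosen with earlier results of these data known. Named are all members, with all arrays for INSIG1, HMGCS1, SREBF1, SREBF2, FASN, SCD and the 6 sterol and 4 fatty acid members with the largest SD over the 8 siRNA arrays, and up to 4 genes of each other list by range. Alternatives were centring, quantile normalization, no filter on dim genes, probe set means, an intensity trend, all arrays in 1 fit, the methods' unpaired test, siNC of 24 h as control, and leaving out arrays. Centring and the other settings for 2-fold counts and for the highest array were added after the data were seen, as was the array labelled siHOXB13 at 48 h in place of siNC.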

Additional observations from a re-analysis of the deposited data

Results flagged for a closer look

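The differences below had opposite signs at the 2 times, each at least 0.5 on the log2 scale, with 1 array per condition. The difference between the times was not tested. For siHOXB13 minus siNC, HMGCS1 was −0.54 at 48 h and 0.73 at 24 h. ACLY was −1.03 at 48 h and 0.71 at 24 h, FASN −0.67 and 0.87, and FADS2 −0.52 and 0.52. Both 48 h arrays of this pair are those whose HOXB13 goes against the label. For siHOXA11 minus siNC, LSS was −1.0 at 48 h and 0.55 at 24 h, and its 48 h value uses the array labelled siNC.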

How the results depend on the processing

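Of 97 alternative counts of members past the adjusted threshold, 95 did not move. For the arrays titled sh against the siRNA arrays the count was 1, ACACA, with array medians centred (log2 difference −1.21) and 1 with quantile normalization (−1.22), beside 0; the genes called were 373 and 295, beside 275, and 69 without both doubtful arrays. ACACA was −0.53 with the mean of its 2 probe sets. With siNC of 24 h as the control of the 48 h arrays, the sterol median was 0.34 for siHOXB13 (beside −0.15), 0.17 for siHOXA11 (beside −0.21) and 1.16 for siHOXA11-AS (beside 0.65), the fatty acid median 0.06 for siHOXB13 (beside −0.56) and 0.37 for siHOXA11 (beside −0.15), and the members 2-fold higher with siHOXA11-AS were 16, against 8.38% of all tested genes, beside 8, against 3.68%. Those differences hold time as well as siRNA. With the array labelled siHOXB13 at 48 h as control, chosen after the data were seen, the siHOXA11-AS sterol median was 0.94 and the fatty acid median 0.97. The members 2-fold higher were then 11, against 6.80% of all tested genes. Those 2-fold lower were 1 (NSDHL), against 4.47% of all, beside 0, against 2.05%. Members 2-fold lower with siHOXA11-AS at 24 h were 2 after centring and 2 after quantile normalization, where the share over all genes was not counted. In the main setting they were 1, against 1.80% of all tested genes. The cause of these shifts was not tested. Leaving out 1 array at a time moved no count of members past the adjusted threshold. In the comparisons with arrays titled sh, only those arrays were left out in this way. For shIBSP against shNC, shNC could not be left out. Members at an unadjusted p under 0.05 were 0 in the methods' unpaired test for siHOXA11-AS against siNC, beside 7, and against siHOXA11, beside 8. No paired analysis was possible because no conditions share 2 replicate numbers; the siRNA fits already match arrays by time, which is a term in them. With 1 array for most conditions, the number of arrays limits what can be detected.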
